A study of Mus musculus with 2 samples.

Results

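The inflammasome and gasdermin genes examined here were 10 genes chosen by symbol, namely Casp1, Casp4, Pycard, Nlrp6, Nlrc4, Gsdmd, Gsdmc, Gsdmc2, Gsdmc3 and Gsdmc4. Of these, 6 had a row in the count table of 19294 genes and 4 did not. The table came from mRNA-seq of mouse intestinal organoids (mIOs), grown from jejunal crypts in Matrigel with EGF, Noggin and R-spondin. It compared 1 control culture with 1 culture treated for 4 days with dextran sulfate sodium (DSS), a sulfated polysaccharide that injures the intestinal epithelium. Both cultures carried the Lgr5-EGFP-IRES-creERT2 allele, a reporter inserted at the Lgr5 locus, so the control was not wild type. The strain background, the age of the mice, the number of animals behind the cultures and the DSS concentration used for sequencing are not given in the sources used here. The comparison asks which parts of this cell death and cytokine pathway differed in RNA level in the injured epithelium.

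Inflammasomes are protein platforms that form in the cytosol when a sensor meets a microbial product or a sign of damage. The sensor recruits caspase-1, often through the adapter ASC (Pycard), and active caspase-1 matures the cytokines IL-1β and IL-18 and cuts gasdermin D, whose freed end opens pores in the plasma membrane. In the intestine, the pathway is known for defending the epithelium, since infected cells are expelled into the lumen and release IL-18. These steps are controlled largely by protein assembly and cleavage, which RNA counts do not measure.

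Sequencing depth was 65493032 counts for control mIOs and 59746968 counts for DSS-treated mIOs. Counts were scaled with TMM factors and are given as CPM, counts per 1000000 scaled counts, and each ratio is the log2 of the scaled DSS count over the scaled control count. There was 1 library per condition, so no difference has a replicate check and no test was made. The interval beside a ratio is an exact Clopper-Pearson 95% interval of the 2 counts and covers counting error only. A ratio of 1 or more, or -1 or less, was used as the line for a large difference. Genes reaching 10 counts in either library were taken as tested, 17235 in all, of which 19.3% had a ratio of at least 1 and 20.2% one of -1 or lower, while 7.87% reached 2 and 6.54% reached -2. Their median ratio was -0.06. Total counts in place of TMM factors moved it to -0.31, a shift of -0.26 that lowers every ratio alike and leaves 37.1% of the genes past a line of 1 on the DSS side, against 48.9% with TMM factors.

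The cultures are labelled as intestinal stem cells, but markers of several epithelial cell types were counted in both libraries. All 4 stem cell markers were at -1 or less, and their summed level went from 701.6 CPM without DSS to 123.5 CPM with it. All 11 mature enterocyte markers and all 6 goblet cell markers were at a log2 ratio of 1 or more, with list medians of 3.32 and 4.37. The 4 enteroendocrine markers were also at 1 or more, and their sum went from 726.7 to 3786 CPM, while the 5 Paneth cell markers were at -1 or less, and their sum went from 821.1 to 205.7 CPM. By RT-PCR of DSS-treated mIOs, the paper reported lower Lgr5 and Lyz, with Vil1, Muc2 and Chga at similar levels. In these libraries Lgr5 was at -3.78 and Lyz1 at -1.06, but Vil1 was at 1.25, Muc2 at 4.98 and Chga at 2.6. The RT-PCR and the sequencing thus differ for Vil1, Muc2 and Chga, and the reason was not tested. In whole organoids, fewer cells of a type and less RNA per cell cannot be told apart. The part of cell composition in the ratios below was not tested. Of 16 immune cell markers, 8 had no row, among them Ptprc, Adgre1 and Cd3e. The 8 others summed to 107 CPM without DSS and 41.4 CPM with it, of which Lcp1 alone, an actin-bundling protein, made 92.8 and 16.4 CPM. Lyz2, at a log2 ratio of -0.56, was also lower after DSS, while the myeloid markers Cd68 at 0.73, Itgam at 1.14 and Csf1r at 1.61, with 9 and 21 counts, were higher.

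The 6 measured members differed in direction and size. Of these, 2 were at a log2 ratio of 1 or more, against 19.3% of all tested genes, 1 was at -1 or less, against 20.2%, and 3 lay between the lines. Gsdmd was the one member at 2 or more, against 7.87% of all tested genes, and no member was at -2 or less, against 6.54%. The median of the members was 0.43. With total counts, Nlrc4 fell short of the line of 1, which left Gsdmd alone above it, and the ratios of Casp1 and Casp4 changed sign.

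**Figure D1:**
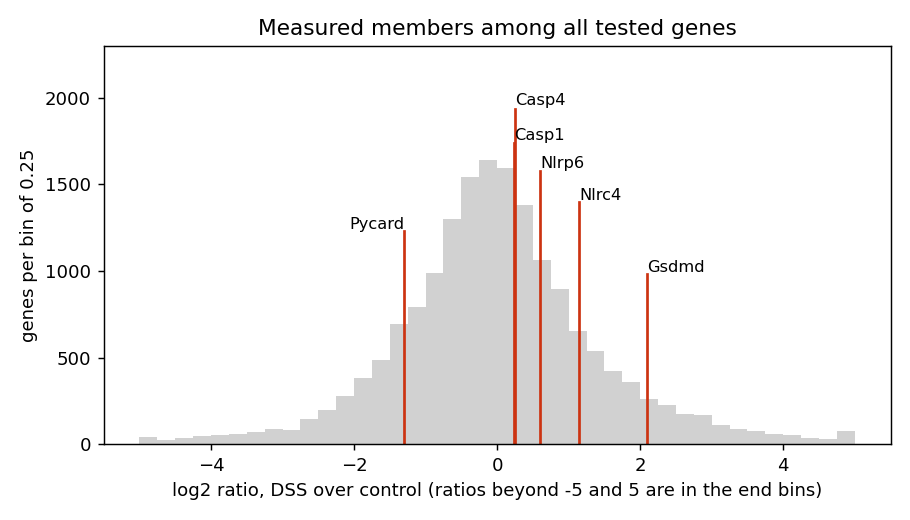
Histogram of the log2 ratio, DSS over control, of all 17235 tested genes in bins of 0.25 (x axis: log2 ratio; y axis: genes per bin), with a red line at each measured member, whose height has no meaning. Casp1 and Casp4 lie near the centre at 0.24 and 0.25, Gsdmd lies at 2.10 and Pycard at -1.30.

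Of the sensors Nlrp6 and Nlrc4, Nlrp6 had the higher level per length of transcript in both libraries. Nlrp6 (NCBI gene identifier 101613) is a sensor of the intestinal epithelium and is known from enterocytes and goblet cells. Control mIOs gave 24320 counts of Nlrp6 and DSS-treated mIOs 28240, which were 339.8 and 516.5 CPM after scaling. The log2 ratio was 0.60 (interval 0.58 to 0.63), and 72.1% of the tested genes had a lower ratio. The DSS value was thus the higher, by 1.52-fold, and stayed short of the line of 1. Over the alternative scalings the ratio ran from 0.35 to 0.69.

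Nlrc4 (identifier 268973), which forms the platform for the NAIP receptors of bacterial flagellin and secretion system proteins, gave 2427 counts without DSS and 4123 counts with it. These were 33.9 and 75.4 CPM, a difference of 2.22-fold. The log2 ratio was 1.15 (interval 1.08 to 1.23), but it was 0.90 with total counts. A pseudogene lies inside the Nlrc4 gene in the GENCODE vM21 annotation, on the same strand, and how the authors' counting treated its reads is not given in the sources used here.

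The other sensors of the list were also higher after DSS. Of 12 sensors besides the members, 8 had a row, 7 were at 1 or more, which is 87.5% against 19.3% of all tested genes, none was at -1 or less, against 20.2%, and their median was 1.43, beside -0.06. With total counts 5 were at 1 or more, since Naip6 was then at 0.95 and Naip2 at 0.76. Under that scaling 2659 of all 17235 tested genes were at 1 or more. The partners of Nlrc4 were among the 7 sensors at 1 or more with TMM factors. Naip6 went from 26608 control counts to 46907 DSS counts, a log2 ratio of 1.21. Naip5, at 8317 and 20158 counts, had a log2 ratio of 1.67, Naip1, at 3244 and 6193 counts, had 1.32, and Naip2, at 3787 and 5867 counts, had 1.02. The Naip genes are close copies, and reads may have been placed on the wrong one, which makes each value uncertain. Their summed counts were 41956 without DSS and 79125 with it, and the log2 ratio of the sums was 1.30 (interval 1.29 to 1.32). Nlrc4 itself was lower than this, at 1.15 (interval 1.08 to 1.23), so the summed receptors differed somewhat more than the platform. Per read of Nlrc4 there were 10.96 reads of Naip6 in the control and 11.4 after DSS. The log2 change of this quotient was 0.05 (interval -0.02 to 0.13), so Naip6 and Nlrc4 differed by close to the same factor.

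Nlrp9b, a sensor of viral RNA in the intestinal epithelium, went from 544 control counts to 3723 DSS counts. Its log2 ratio of 3.16 (interval 3.03 to 3.30) was the highest of the listed sensors. Nlrp1b, the sensor of anthrax lethal factor activity, was at 1.54, and Nlrp10 was at 1.55. Aim2, the sensor of cytosolic DNA, lay inside the lines with 614 and 621 counts, a ratio of 0.40. Nlrp3, Nlrp1a, Nlrp12 and Mefv had no row and were not analysed here.

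Pycard (identifier 66824), unlike the other 5 measured members, had a lower scaled level after DSS under all 6 settings, that is TMM factors and 5 alternatives. Its product ASC joins sensors that carry a pyrin domain, such as Nlrp6, to caspase-1, while Nlrc4 carries its own caspase recruitment domain. Pycard went from 3396 control counts to 1056 DSS counts, which were 47.45 and 19.3 CPM. The log2 ratio was -1.30 (interval -1.40 to -1.20), a level 2.46-fold lower after DSS, and 14.8% of the tested genes had a lower ratio. Over the alternatives it ran from -1.55 to -1.21. A transcript model of unsettled status overlaps the start of Pycard on the opposite strand in GENCODE vM21. The libraries were stranded, but whether the authors' counting used the strand is not given in the sources used here.

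The inflammatory caspases were close to the centre of all genes. Casp1 (identifier 12362), the protease of the canonical inflammasomes, gave 3950 counts without DSS and 3567 counts with it, or 55.2 and 65.2 CPM. Its log2 ratio was 0.24 (interval 0.18 to 0.31). Casp4 (identifier 12363), the mouse caspase also called caspase-11, binds bacterial lipopolysaccharide directly and starts the noncanonical route to gasdermin D. Its counts were 1857 and 1687, or 25.95 and 30.9 CPM, and its log2 ratio was 0.25 (interval 0.15 to 0.35). With total counts, both ratios were -0.01, so neither gene has a direction that holds across the scalings.

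Casp1 and Casp4 are neighbours on chromosome 9, and their reads kept the same proportion. There were 2.13 reads of Casp1 per read of Casp4 without DSS and 2.11 with it, a log2 change of -0.01 (interval -0.12 to 0.11). No scaling enters this quotient. The nearest counted gene beyond Casp4 in the RefSeq order of genes, Casp12, had few reads, 37 without DSS and 10 with it. Its log2 ratio was -1.50 (interval -2.67 to -0.46). The nearest on the other side, the pseudogene Gm7390, had 121 and 27 counts and a ratio of -1.78.

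The sequences before the transcription starts of these neighbours are shown because their reads kept 1 proportion, and that of Pycard because it was the member lower after DSS. Promoter entries from RefSeq (build GRCm38.p6) were found for 6 of the 10 members and for 5 of the 6 measured ones. Gsdmd had no entry. Each window below is the 250 bases before the annotated start, 5′ to 3′ on the gene's strand, and capitals mark matches to the NF-κB consensus on either strand. The windows are chr9:5298267-5298516 on the plus strand for Casp1, chr9:5308599-5308848 on the plus strand for Casp4 (the first of its annotated starts) and chr7:127993868-127994117 on the minus strand for Pycard.
Casp1: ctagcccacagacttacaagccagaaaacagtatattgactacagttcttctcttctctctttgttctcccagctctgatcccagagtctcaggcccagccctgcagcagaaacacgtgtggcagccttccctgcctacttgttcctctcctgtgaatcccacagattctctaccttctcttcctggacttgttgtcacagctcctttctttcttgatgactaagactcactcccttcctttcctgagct
Casp4: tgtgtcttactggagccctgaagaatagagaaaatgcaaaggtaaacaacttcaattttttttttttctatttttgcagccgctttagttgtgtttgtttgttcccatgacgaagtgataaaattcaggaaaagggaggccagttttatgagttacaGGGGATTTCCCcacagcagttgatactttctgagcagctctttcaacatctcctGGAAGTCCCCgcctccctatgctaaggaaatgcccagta
Pycard: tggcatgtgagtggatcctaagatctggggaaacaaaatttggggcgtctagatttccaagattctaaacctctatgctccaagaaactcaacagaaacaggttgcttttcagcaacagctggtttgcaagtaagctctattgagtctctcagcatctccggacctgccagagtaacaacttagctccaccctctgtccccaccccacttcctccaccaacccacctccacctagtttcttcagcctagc

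The Casp4 window held 3 matches to the NF-κB consensus, of which a pair that overlap began 93 and 92 bases before the start and the other began 39 bases before it. The windows of Casp1, Pycard, Nlrp6 and Nlrc4 held none. Of 32851 RefSeq windows of this length, 7.25% held a match. The IRF motif, a GAAA repeated after any 2 bases (in 2.98% of the windows), the HNF4 motif CAAAGTCCA (0.384%) and the ETS motif CCGGAAG (6.91%), searched on both strands, had no match in the windows of these 5 genes. A match is a run of letters and not a measured site. The Casp1 window, without a match, and the Casp4 window, with 3, belong to the genes whose ratios were 0.24 and 0.25. Whether the matches bear on these ratios was not tested.

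Casp8, an initiator caspase that can also cut gasdermin D, was listed with them and was at 0.23. It turned negative with total counts, at -0.03.

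Gsdmd (identifier 69146) had the largest ratio of the measured members. Gasdermin D is the pore former cut by caspase-1 and caspase-11. Gsdmd went from 3083 control counts to 10087 DSS counts, or from 43.1 to 184.5 CPM. The log2 ratio was 2.10 (interval 2.04 to 2.16), a level 4.28-fold higher after DSS, and 92.7% of the tested genes had a lower ratio. The ratio ran from 1.84 with total counts to 2.19 with upper quartile factors, so it stayed above the line of 1 in all 6 settings and fell below 2 with total counts.

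Gsdme, another pore-forming gasdermin, had far fewer reads, 234 without DSS and 456 with it. Its log2 ratio was 1.35 (interval 1.12 to 1.58). Of 5 gasdermin genes besides the members, Gsdme and Pjvk had a row, and Pjvk, with 3 and 4 counts, was under the count minimum. The reads of Gsdmd per read of Gsdme went from 13.2 to 22.1, a log2 change of 0.75 (interval 0.51 to 0.98).

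Gsdmc, Gsdmc2, Gsdmc3 and Gsdmc4 had no row by symbol, NCBI gene identifier or RefSeq transcript accession. They lie side by side on mouse chromosome 15, where RefSeq places 7 genes and pseudogenes within the cluster, and none of the 7 had a row. A counted neighbour of the cluster, Fam49b, had 2748 control counts and 1619 DSS counts. The table lists no gene with 0 counts in either library, so the levels of the Gsdmc genes and the direction of any difference are not known here. All statements on the members therefore cover 6 genes.

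Levels of different genes were compared per length of transcript. In the control library the order was Nlrp6 at 76.6 CPM per kb, Casp1 at 36.9, Gsdmd at 24.0, Casp4 at 18.1, Pycard at 12.5 and Nlrc4 at 7.17. In the DSS library it was Nlrp6 at 116 CPM per kb, Gsdmd at 103, Casp1 at 43.6, Casp4 at 21.5, Nlrc4 at 15.95 and Pycard at 5.08. Gsdmd thus stood below Casp1 in the control and above it after DSS, and Pycard and Nlrc4 changed places as well on this scale. Whether neighbours in this order differ beyond the spread between cultures cannot be said from 1 library each. The place of Pycard depended on the transcript model, which is 3800 bases long in GENCODE vM21 with 579 coding bases. Per kb of coding length, Pycard was at 81.95 CPM without DSS and 33.4 CPM with it, above Casp4 and Nlrc4 in both, so the change of places between Pycard and Nlrc4 was not seen on that scale. Per kb of coding length, Pycard also stood above Casp1 at 45.8 and Gsdmd at 29.5 in the control. After DSS it stood below both, with Casp1 at 54.1 and Gsdmd at 126.3. Gsdmd stood below Casp1 in the control and above it after DSS on both scales.

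**Figure D2:**
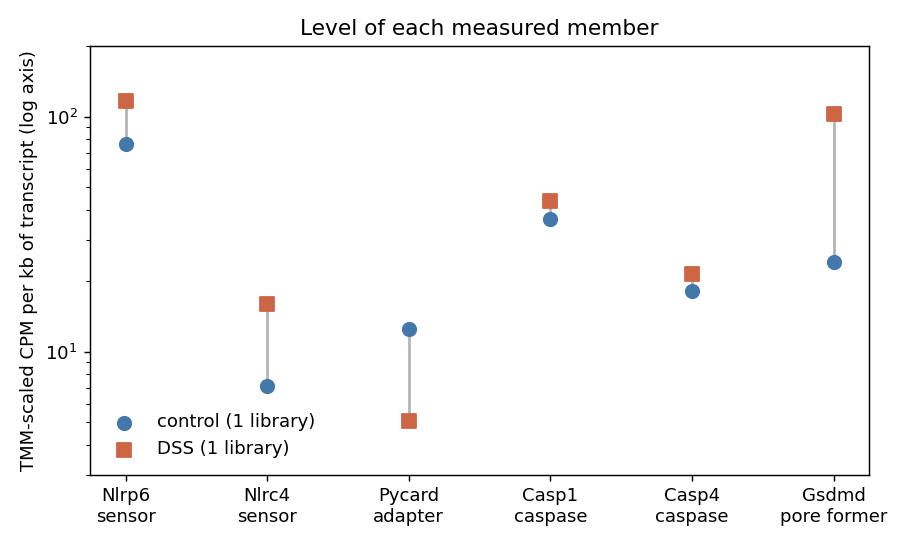
Level of the 6 measured members in TMM-scaled CPM per kb of transcript (y axis, log scale) in the control library (blue circles) and the DSS library (orange squares), with no error bars because each point is 1 library. Gsdmd goes from 24.0 to 103 and Pycard from 12.5 to 5.08, while Casp1 goes from 36.9 to 43.6 and Casp4 from 18.1 to 21.5.

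Quotients of reads within a library do not depend on the scaling. The genes differ in length, so what is read from these quotients is their change and not their size. Pycard had the lowest and Gsdmd the highest ratio of the measured members. The direction of each change over Pycard or of Gsdmd therefore follows from the single ratios and is no further support for them. Reads of Gsdmd per read of Pycard went from 0.908 in the control to 9.55 in the DSS library. The log2 change was 3.40 (interval 3.28 to 3.51), a 10.5-fold higher quotient of pore former to adapter. Reads of Nlrc4 per read of Pycard went from 0.715 to 3.90, a log2 change of 2.45. Reads of Nlrp6 per read of Pycard went from 7.16 to 26.7, a log2 change of 1.90, and those of Casp1 from 1.16 to 3.38, a log2 change of 1.54.

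The reads of Gsdmd were also higher relative to those of Casp1 and Casp4, which encode proteases that cut gasdermin D. Reads of Gsdmd per read of Casp1 went from 0.780 to 2.83, with a log2 change of 1.86 (interval 1.77 to 1.94). Per read of Casp4 they went from 1.66 to 5.98, with a log2 change of 1.85. Nlrp6 was lower relative to Nlrc4, since the quotient of their reads went from 10.02 to 6.85, a log2 change of -0.55 (interval -0.63 to -0.47).

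**Figure D3:**
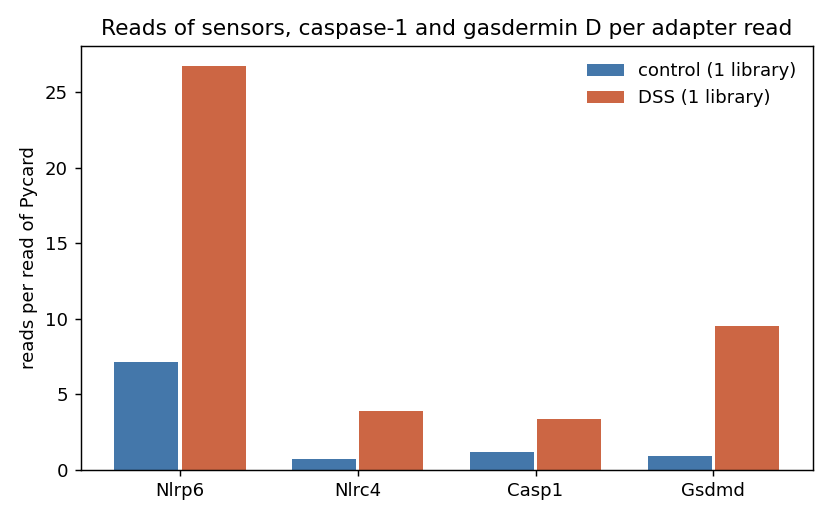
Reads of Nlrp6, Nlrc4, Casp1 and Gsdmd per read of the adapter Pycard (y axis, from 0) in the control library (blue bars) and the DSS library (orange bars), 1 library each and not corrected for length, so only the 2 bars of a gene are compared. All 4 quotients are higher in the DSS library, which follows from Pycard having the lowest ratio of the measured members. That of Gsdmd goes from 0.908 to 9.55.

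The listed genes of cytokines, their receptors and antagonists differed in direction, and Il18 had the highest ratio among them. Il18, the cytokine that caspase-1 matures in the epithelium, went from 407 control counts to 3137 DSS counts. Its log2 ratio was 3.33 (interval 3.19 to 3.49), and its reads per read of Casp1 went from 0.103 to 0.880. Il1b and Il1a had no row. Il18r1, a chain of the IL-18 receptor, had 54 and 307 counts, a ratio of 2.90. Il1rn, the antagonist of the IL-1 receptor, had 1567 and 6140 counts, a ratio of 2.36, while the accessory chain Il1rap had 937 and 382 counts, a ratio of -0.91. Il18bp, which neutralizes IL-18, was at 0.57. Of the 10 listed genes of this group, 6 had a row. Of these, 4 were at 1 or more, which is 66.7% against 19.3% of all tested genes, the fourth being Il1r1 with 10 and 56 counts. None was at -1 or less, against 20.2%, but with total counts Il1rap was, at -1.16.

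The regulators were divided. Of 15 listed genes, 12 had a row, and 3 were at 1 or more, which at 25% is near the 19.3% of all tested genes. None was at -1 or less, against 20.2%, and their median was 0.11. One of the 3, Pstpip1, had only 5 and 36 counts. Serpinb1a, a serpin that restrains inflammatory caspases, went from 11279 control counts to 35545 DSS counts, a log2 ratio of 2.04 (interval 2.01 to 2.08). Irf1, a transcription factor of interferon responses, had 446 and 1200 counts, a ratio of 1.82. Irf2, which is known to drive Gsdmd transcription, was at 0.61 with 4292 and 4992 counts, and Irf8, which is known to activate Naip genes, was at -0.60 with 4206 and 2115 counts. Dpp8 at -0.22 and Dpp9 at -0.10, the peptidases that hold Nlrp1b inactive, Nek7, a partner of Nlrp3, at 0.31, Brcc3 at -0.37 and Txnip at -0.13 lay inside the lines. Dhx15, an RNA helicase that works with Nlrp6, was at -0.97 and passed the line with total counts, at -1.22.

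Over the 5 lists of sensors, caspases, gasdermins, cytokine genes and regulators, and without the members, 15 of 29 tested genes were at 1 or more, against 19.3% of all tested genes, and 1 was at -1 or less, against 20.2%. The 15 are 51.7% of these genes. They include Naip1, Naip2, Naip5 and Naip6, which can share reads, and Il1r1 and Pstpip1, which had few. The 1 gene at -1 or less was Casp12, which also had few reads, 37 and 10. With total counts 5 sensors in place of 7 were at 1 or more, and Il1rap at -1.16 and Dhx15 at -1.22 passed the line of -1. The mature enterocyte and goblet cell markers were higher in the same library, and the part of this in the counts was not tested.

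**Figure D4:**
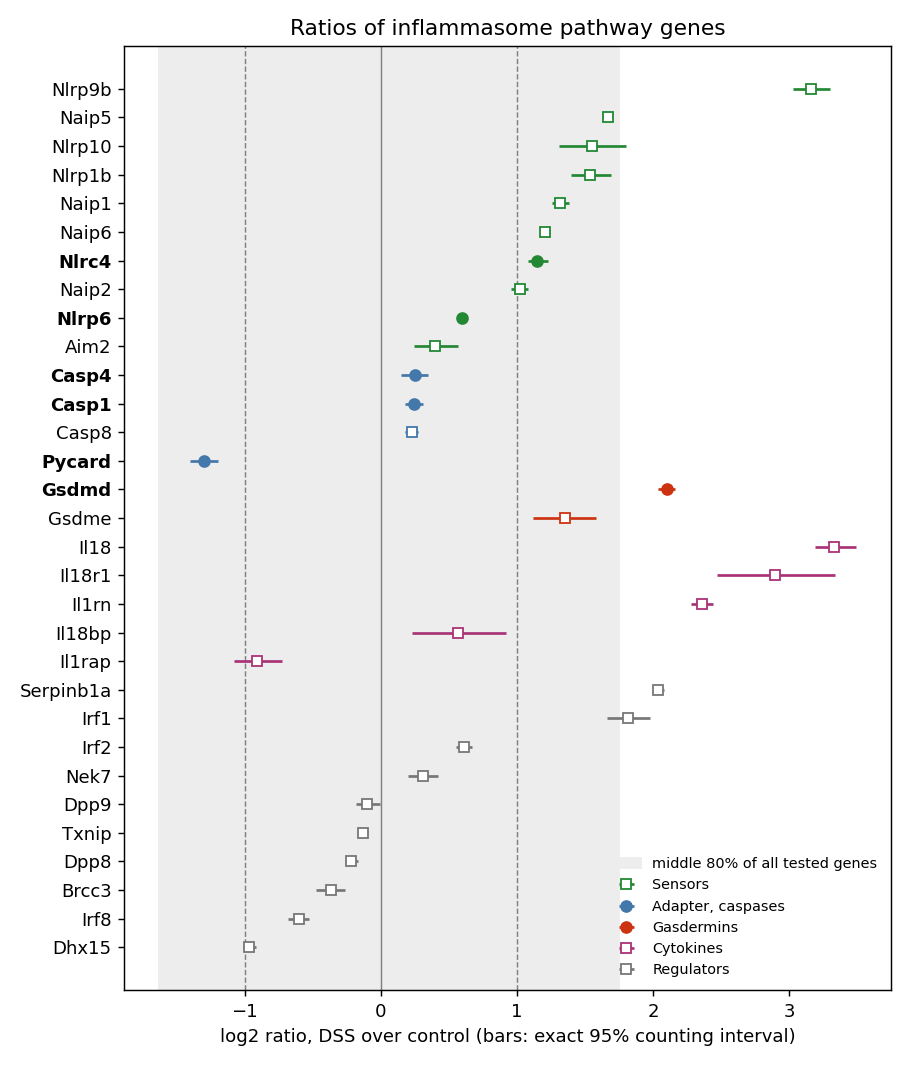
Log2 ratio, DSS over control (x axis), of the genes of the 5 lists that reached 100 counts in either library, grouped by colour, with members as filled circles in bold and other genes as open squares. Bars are exact 95% counting intervals, dashed lines mark -1 and 1, and the grey band holds the middle 80% of all tested genes; Gsdmd, Nlrp9b, Il18, Il18r1, Il1rn, Serpinb1a and Irf1 lie to the right of the band, and Pycard has the lowest ratio plotted.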

How the data were processed

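RNA from mIOs of 1 untreated and 1 DSS-treated culture was sequenced as mRNA. The authors deposited raw counts of reads per gene without normalization, from stranded poly(A) libraries. The submitters' processing notes name HISAT2 and StringTie, and the genome build and the counting settings are not given in the sources used here. A second set of files, 1 per sample, carries FPKM in its names, but its values equal the counts of the joint table for all 19294 genes, so it was not used.

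The members were matched by symbol, and the members and lists were chosen with earlier results of these data known. Counts were scaled with TMM factors (1.09 for control, 0.915 for DSS) in edgeR 4.0.16 under R 4.3.3. Intervals are exact Clopper-Pearson intervals, or delta-method intervals for quotients of reads, and cover counting error only. Ratio, interval and scaling code was tested on simulated data in which most genes did not differ. Far more genes differ in these libraries, so that test does not show whether the TMM scaling holds here. With 1 library per condition no test was run. Genes other than members were named if they reached 100 counts in either library, whatever their ratio, or if they were the nearest counted gene to Gsdmd, the Gsdmc cluster or Casp1 and Casp4. Some genes of the caspase list are not reported here and were left out of its counts. Marker genes shown with values, and Pjvk, Il1r1 and Pstpip1 with fewer counts, were picked after the values were seen.

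Transcript lengths were those of the GENCODE vM21 transcript carrying the listed RefSeq accession. Neighbours were taken from RefSeq (GRCm38.p6). The ratios were recomputed with total counts, with upper quartile factors, with size factors of DESeq2 1.42.0, after thinning the deeper library, and with 2 added to every count. The count minimum was varied and a line of 2 was tried. Having seen the data, coding length and the counts of the other lists under each scaling were added. Scripts ran in Python 3.11.15 with pandas 2.3.3, scipy 1.17.1 and numpy 2.4.6, and matplotlib 3.10.9 drew the plots.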

Additional observations from a re-analysis of the deposited data

How the results depend on the processing

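With DESeq2 size factors, a prior count of 2 and thinning of the deeper library, the ratios of the 6 members and of 43 other genes stayed within their counting intervals. Of these 49 genes, only 2 stayed within them with total counts and 16 with upper quartile factors. The counting intervals thus do not cover the choice of scaling. With total counts, which lower every ratio by 0.26, 1 member was at 1 or more in place of 2, and the median of the members was 0.17. It was 0.52 with upper quartile factors. Ratios that changed sign with total counts were those of Casp1 (-0.01), Casp4 (-0.01), Casp8 (-0.03), Chmp3 (-0.08), Vps4b (-0.06) and Stat6 (-0.12). At a line of 2, 1 member was above and 0 below. With total counts, 37.1% of the genes of the whole table past either line of 1 were higher after DSS, against 48.9% with TMM factors. The count minimum did not change the numbers of members. The ratio of the summed Gsdmc2, Gsdmc3 and Gsdmc4 counts and the median with the Gsdmc genes as 1 gene were not run, because these genes have no row. No replicate could be left out, and no paired analysis was possible because each condition is 1 library.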

Other observations

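Genes listed for membrane rupture and repair were mostly inside the lines of -1 and 1. Of 10 listed genes, all had a row, and 1 was at 1 or more, which is 10% against 19.3% of all tested genes. None was at -1 or less, against 20.2%, and the median was 0.42. Ninj1, whose product tears the plasma membrane of dying cells, went from 1149 control counts to 499 DSS counts. Its log2 ratio was -0.81 (interval -0.97 to -0.66), or -1.07 with total counts, and it was the one gene of this list below 0 with TMM factors. The ESCRT-III genes, which remove damaged membrane, ran from Chmp3 at 0.18 and Chmp4b at 0.35 to Chmp2a and Chmp6 at 0.66. Among their partners, Vps4b was at 0.19, Pdcd6ip at 0.41, Vps4a at 0.43 and Pdcd6 at 0.81. Gpx4, which limits lipid peroxidation, had 12466 and 33476 counts and a ratio of 1.81.

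Genes of the type 2 cytokine response were listed because the mouse Gsdmc genes are known to respond to it. Of 10 listed genes, 8 had a row, and 4 were at 1 or more, which is 50% against 19.3% of all tested genes. At -1 or less there was 1, against 20.2%. This number was 2 with total counts, where Ang4 was at -1.14, and 0 with upper quartile factors, where Itln1 was at -0.94. The receptor chain Il13ra1 went from 1845 control counts to 4628 DSS counts, a ratio of 1.72, while Il4ra was at 0.76 and the transcription factor Stat6 at 0.13. The small proline-rich genes Sprr2a1, Sprr2a2 and Sprr2a3 were at 1.87, 1.91 and 2.05, and they are close copies that can share reads. The secreted proteins Itln1 and Ang4 were at -1.03 and -0.88.

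The nearest counted genes on both sides of Gsdmd in the RefSeq order were also higher in the DSS library. Mroh6 had 378 and 704 counts and a log2 ratio of 1.29 (interval 1.10 to 1.47). The noncoding Gm46523 had only 16 and 29 counts and a ratio of 1.25, with a wide interval of 0.32 to 2.23. Beside the Gsdmc cluster, Fam49b was at -0.37 and the pseudogene Gm5473, with 27 and 6 counts, at -1.78.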
